A study of Mus musculus with 12 samples.

Results

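The genes described here code for the mitochondrial respiratory chain in the tibial hypertrophic zone of 2 mouse models of Schmid type metaphyseal chondrodysplasia. They were taken by gene name in the array files, whatever their signal: Cyc1, Cycs, and the Nduf, Sdh, Uqcr, Cox4 to Cox8 and Atp5 genes. Nduf names had to continue with a, b, c, s or v and a digit, and Uqcr names with a letter or digit. Ndufab1, Ndufaf1 and a gene named only Uqcr were thus left out, as were chain genes listed under other names. The rule gave 111 probes for 81 genes, out of 41174 probes for 27962 named genes on the array. Assigned to complexes by gene name, with every Nduf gene placed in complex I, they comprised 35 genes of complex I, 4 of complex II, 7 of complex III, 1 for cytochrome c, 17 of complex IV and 16 of complex V. The remaining gene, Cox4nb, matched only by its name and codes for a subunit of an endoplasmic reticulum membrane complex.

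The respiratory chain sits in the inner mitochondrial membrane. Complexes I and II pass electrons from NADH and succinate to coenzyme Q, complex III passes them on to the small soluble carrier cytochrome c, and complex IV hands them to oxygen. Complexes I, III and IV pump protons, and complex V lets them flow back to make ATP. Growth plate cartilage has no blood vessels, and its chondrocytes are known to rely heavily on glycolysis. Cytochrome c has a further role: its release from mitochondria starts the caspase cascade of apoptosis.

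Each of 4 groups held 3 mice aged 14 days, with 1 array per mouse. Schmid mice carried the Col10a1 p.Asn617Lys substitution, homozygous per the study's figure legends, which makes collagen X misfold. Cog mice carried the ColXTgcog transgene, in which the Col10a1 promoter drives a misfolding thyroglobulin in hypertrophic chondrocytes; hemizygous and homozygous animals were not told apart. The 2 control groups were wildtype littermates of the Schmid background and of the Cog background. All zones were cut by scalpel from frozen sections and their RNA went through 2 rounds of amplification, so each value describes a zone of mixed cells, in which fewer cells of a type and less RNA per cell cannot be told apart.

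The transgene was present where it was labelled: the 2 probes of Tgn, the thyroglobulin gene, read 239-fold and 207-fold higher in Cog than in its wildtype. Between 39.6% and 61.8% of spots per array were well above background, and between 76 and 80 of the 81 genes were. Summed signals of 8 skeletal muscle markers, on the log2 scale, spanned 16.27 to 17.78 in Schmid, 17.71 to 18.19 in its wildtype, 16.38 to 16.69 in Cog and 17.13 to 18.56 in its wildtype. In Cog most of that sum was Tnni2 (16.22 to 16.46), while the myosin gene Myh4 read 8.58 to 11.19. The sum is thus no measure of all 8 markers. The summed hypertrophic chondrocyte markers lay between 18.02 and 19.47 on all 12 arrays. Such a sum of unlogged signals weights bright markers most, and single markers moved beneath it. Ihh had log2 fold changes of -3.55 in Schmid and -1.37 in Cog. Mmp13 read 16.36 and 16.64 in replicate 1 of the 2 wildtype groups, against 12.97 to 14.12 in replicates 2 and 3. The sum therefore does not show that the dissected zones matched. Each slide held arrays of 1 genotype, except that replicate 3 of the Schmid-background wildtype shared a slide with the 3 Cog mice. Slide and genotype therefore cannot be told apart within either comparison.

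One control array stood apart in these genes and bears on every result below. For each array, the deviation of each gene's brightest probe from that probe's mean over 12 arrays was taken, and the median over the 81 genes was computed. This median was -0.65 in replicate 1 of the Cog-background wildtype, against 0.44 and 0.41 in replicates 2 and 3. Replicate 1 had the lowest value of its group for 68 of the 81 genes, and for 32 of them it lay more than 1 log2 unit below both others. The 3 Cog arrays read -0.29, -0.15 and -0.33. The Schmid arrays read -0.34, 0.01 and 0.01, and those of the Schmid-background wildtype 0.04, 0.41 and 0.42. Both mutant groups thus lay below replicates 2 and 3 of their controls, while replicate 1 lay just above the highest Schmid array in the one background and below every Cog array in the other. The corresponding median over all probes stayed within 0.063 of 0 on every array. Quantile normalisation gives every array the same distribution and so keeps that median near 0, which does not show the array to be otherwise alike. Over 101 ribosomal protein probes the corresponding median was -0.29 in the same wildtype array and between -0.18 and 0.15 in the other 11. The amount or integrity of RNA behind that array was not tested.

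**Figure D1:**
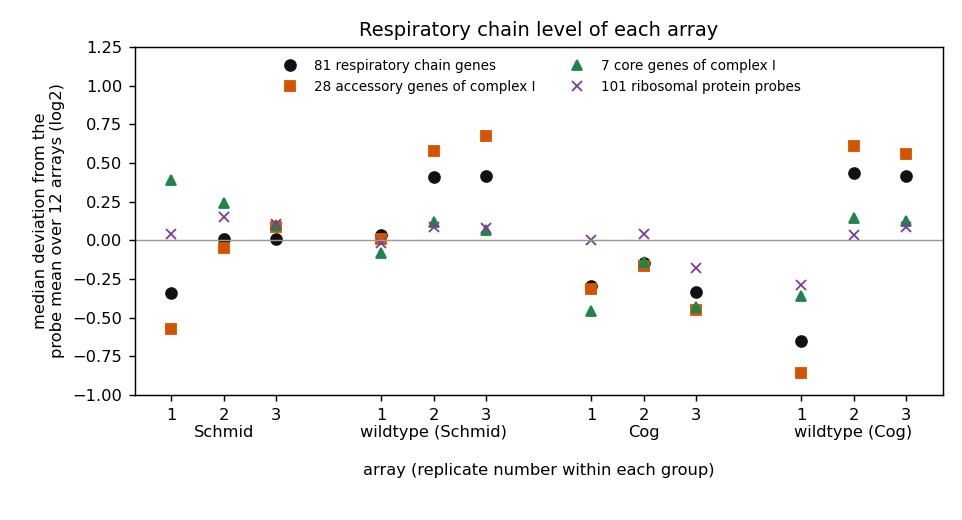
Median deviation from the probe mean over 12 arrays (log2, y axis) on each array (x axis, replicate number within the 4 groups), for all 81 genes, the accessory and core genes of complex I, and ribosomal protein probes. Replicate 1 of the Cog-background wildtype, at -0.65 over the 81 genes, lies below every other array, while replicates 2 and 3 of both wildtype groups lie between 0.41 and 0.44.

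Markers of other cell types also moved with genotype in Schmid: 3 of 6 red cell, 4 of 6 endothelial, 1 of 5 osteoclast, 1 of 5 osteoblast, 0 of 5 neutrophil and 1 of 6 proliferation markers were lower there at the adjusted p. Summed red cell markers spanned 14.63 to 16.07 in Schmid and 17.95 to 19.91 in its wildtype, and endothelial markers 12.49 to 13.01 and 14.22 to 14.97. Of the measured cartilage and hypertrophic chondrocyte markers, 1 of 4 each was lower in Schmid, and 0 and 1 were lower in Cog. In Cog 1 endothelial and 1 osteoblast marker were lower and 1 osteoclast marker higher. The part of these cells in the results was not tested.

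The first comparison set the Schmid hypertrophic zone against its own wildtype. Higher were the cytochrome c gene Cycs, the complex II anchor Sdhd, the supercomplex factor Cox7a2l and Atp5s, named as a coupling factor of complex V. The falls lay in complexes IV and V, in Cox7b, Cox6c, Cox6b2, Cox8c, Atp5h and Atp5g3. At each gene's brightest probe, 10 of 81 genes (12.3%) were called, against 24% of all probes: 4 were higher and 6 lower at an adjusted p of 0.05 or less (limma, Benjamini-Hochberg over all probes), where 10.6% of all probes were higher and 13.3% lower. With a fold change of at least 2 as a further condition, 2 genes were higher and 1 lower, against backgrounds of 5.78% and 4.69%. With all arrays and no block, these shares lay below those of the whole array, an order that for the falls turned in 2 fits given further on. Of all 81 genes, 61 had a negative fold change, with a median log2 fold change of -0.39, where the median of all probes was -0.06. Among the 2842 probes of the array with a mean log2 intensity of 13.9 or more, a level that 61 of the 81 genes reached, the median was -0.001 over all such probes and -0.40 over the 61 genes. The 2 groups did not overlap for 28 genes that were lower (34.6%) and 9 that were higher (11.1%), where 26.1% and 19.3% of all probes did the same.

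Cytochrome c, which Cycs codes for, was higher at all 3 of its probes. Its brightest probe read 16.72, 16.80 and 16.91 (log2 intensity) in Schmid against 15.64, 15.75 and 16.15 in its wildtype. Its second probe read 14.90, 14.37 and 14.51 in Schmid against 13.13, 12.47 and 12.82, and probe 3 read 14.38, 13.92 and 14.19 against 13.19, 12.52 and 12.59. At all 3 probes every Schmid array lay above every wildtype array of its background. The log2 fold changes were 0.96 ± 0.26 (SE, adjusted p = 0.0227), 1.79 ± 0.23 (adjusted p = 0.000757) and 1.40 ± 0.22 (adjusted p = 0.00196, limma for all 3, n = 3 mice per group). Probes 2 and 3 are not independent of each other, since on the mm7 build they cover chromosome 6 from 50524652 to 50524593 and from 50524632 to 50524573, on the reverse strand. The brightest probe lies apart from them, from 50525365 to 50525306. Cycs is known to have processed pseudogenes, and signal from these could not be separated.

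In Cog the 3 Cycs probes diverged. The brightest read 15.94, 16.34 and 16.02 against 14.81, 15.91 and 15.65 in its wildtype, a log2 fold change of 0.65 ± 0.26 that did not pass (adjusted p = 0.178). Probes 2 and 3 changed by 0.01 ± 0.23 and -0.21 ± 0.22, with overlapping groups. The difference between the Schmid and Cog effects was 1.77 at the second probe (adjusted p = 0.00645) and 1.61 at the third (adjusted p = 0.00786), but 0.31 at the brightest (adjusted p = 0.579). Cycs at probes 2 and 3 passed in Schmid, and in the difference, under every alternative setting that was run.

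The bases before the annotated start of Cycs are shown because its transcript rose in Schmid at all of its probes, beside those of Sdhd and Cox7a2l, which also rose, and of Cox7b and Atp5h, which fell. The sequences are RefSeq windows of build GRCm38.p6, given from 200 bases before the start to the base before it, along the gene's own strand. Capitals mark matches on either strand to 4 short motifs known from promoters of respiratory genes: GCATGCGC (NRF1), TGACGT (CREB), CCGGAAG (ETS factors) and AAGATGGCG (YY1). Cycs lies on chr6:50566570-50566769 (minus strand), Sdhd on chr9:50603850-50604049 (minus), Cox7a2l on chr17:83514334-83514533 (minus), Cox7b on chrX:106015500-106015699 (plus) and Atp5h on chr11:115419920-115420119 (minus).
Cycs: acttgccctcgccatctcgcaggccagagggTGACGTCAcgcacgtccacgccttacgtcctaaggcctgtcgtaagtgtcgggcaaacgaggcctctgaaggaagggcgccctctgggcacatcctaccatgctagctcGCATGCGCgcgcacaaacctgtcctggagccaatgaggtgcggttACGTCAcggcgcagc
Sdhd: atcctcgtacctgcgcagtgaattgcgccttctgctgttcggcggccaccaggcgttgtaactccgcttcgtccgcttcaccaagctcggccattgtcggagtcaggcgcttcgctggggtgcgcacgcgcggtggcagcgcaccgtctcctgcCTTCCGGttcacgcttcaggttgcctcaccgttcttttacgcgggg
Cox7a2l: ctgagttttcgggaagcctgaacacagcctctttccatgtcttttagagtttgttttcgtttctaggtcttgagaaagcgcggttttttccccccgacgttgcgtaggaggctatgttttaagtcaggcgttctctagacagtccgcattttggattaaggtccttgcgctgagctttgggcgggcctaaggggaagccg
Cox7b: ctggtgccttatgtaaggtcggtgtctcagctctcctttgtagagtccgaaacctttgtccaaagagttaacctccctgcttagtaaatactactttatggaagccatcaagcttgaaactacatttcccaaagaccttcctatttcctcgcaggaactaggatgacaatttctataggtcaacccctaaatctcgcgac
Atp5h: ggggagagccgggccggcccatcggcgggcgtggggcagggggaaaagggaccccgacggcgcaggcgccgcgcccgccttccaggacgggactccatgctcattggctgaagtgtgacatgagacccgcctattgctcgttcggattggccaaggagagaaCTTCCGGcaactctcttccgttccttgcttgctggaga
In the Cycs window the NRF1 letters started 60 bases before the start, and the CREB letters stood at 2 places, one of them the palindrome TGACGTCA, in which both strands match and overlap. Sdhd and Atp5h held the ETS letters, and neither Cox7a2l nor Cox7b held any of the 4 in these windows. Of 80 genes looked up, leaving out Cox4nb, 65 had a window, some with more than 1, for 70 windows of 300 bases that run to 50 bases past the start. The NRF1 letters occurred in 10 of the 70 (14.3%), against 2.71% of all 32851 windows. The CREB letters occurred in 11 (15.7%, against 7.51%), the ETS letters in 15 (21.4%, against 8.86%) and the YY1 letters in 7 (10.0%, against 1.4%). A match describes the letters and is not evidence of binding.

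Cox7a2l codes for a factor that joins complexes III and IV into supercomplexes. It read 13.69, 13.42 and 13.47 in Schmid against 12.07, 12.50 and 12.61 in its wildtype, with no overlap. Its log2 fold change was 1.14 ± 0.15 (2.20-fold, adjusted p = 0.000862, limma) and passed under all 21 alternatives. In Cog it read 12.85, 12.78 and 12.82 against 12.11, 12.44 and 12.29, again without overlap, with a log2 fold change of 0.54 ± 0.15 that did not pass (adjusted p = 0.0766). The difference between the 2 effects did not pass either (0.60 ± 0.21, adjusted p = 0.0831).

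Atp5s, which current RefSeq names Dmac2l, read 11.37, 11.98 and 12.13 in Schmid against 11.08, 10.33 and 9.67 in its wildtype. Its log2 fold change of 1.47 ± 0.38 passed (2.77-fold, adjusted p = 0.0199, limma). In Cog it read 10.31, 11.37 and 11.19 against 10.12, 10.09 and 9.62, every Cog array above every control, but the log2 fold change of 1.01 ± 0.38 did not pass (adjusted p = 0.157). The second probe of Atp5s did not follow in either mutant, with log2 fold changes of 0.43 and -0.18 and overlapping groups. The evidence for Atp5s thus rests on 1 of its 2 probes.

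Complex II, which also serves the tricarboxylic acid cycle, has 4 subunits, all coded in the nucleus. Sdhd, a membrane anchor, read 14.24, 14.26 and 14.38 in Schmid against 14.13, 13.30 and 13.38, with a log2 fold change of 0.69 ± 0.22 (adjusted p = 0.0431, limma). The other 3 subunits did not pass in Schmid: the flavoprotein Sdha changed by -0.33, the iron-sulphur subunit Sdhb by 0.11 and the anchor Sdhc by -0.04 on the log2 scale. In Cog all 4 fold changes were negative and none passed, from -0.28 for Sdhd to -1.09 for Sdhc. Sdhc read 13.00, 13.40 and 13.33 in Cog against 13.65, 14.65 and 14.70, with no overlap (adjusted p = 0.0564, limma). The second probe of Sdha gave a Schmid change of 0.93, opposite in sign to its brightest, and that of Sdhc was not above background on any array.

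**Figure D2:**
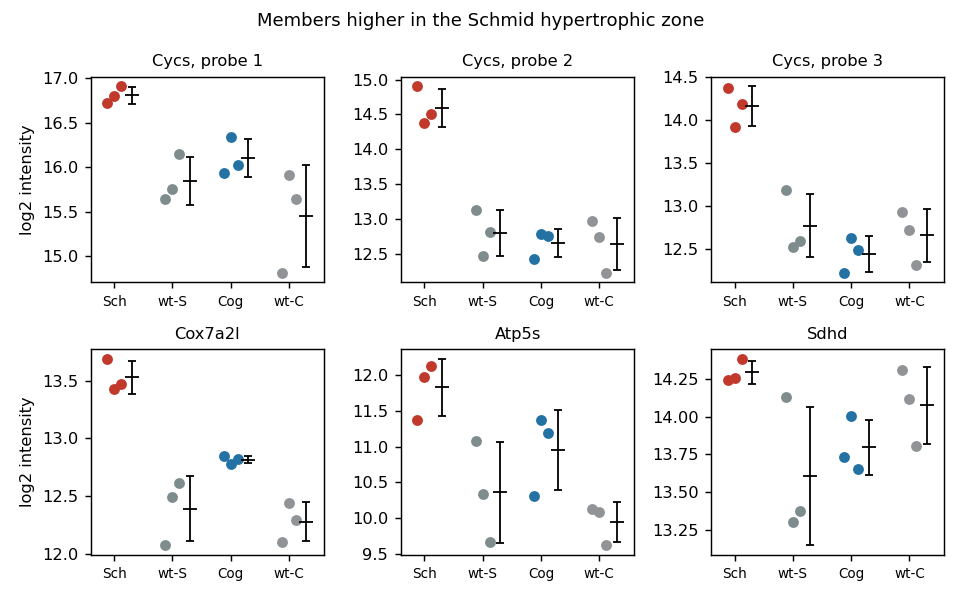
Log2 intensity (y axis) of the 3 Cycs probes and the brightest probes of Cox7a2l, Atp5s and Sdhd in the 4 groups (x axis: Sch, Schmid; wt-S, its wildtype; Cog; wt-C, its wildtype). Points are mice and bars give mean ± SD (n = 3); at Cycs probes 2 and 3 the Schmid means of 14.59 and 14.16 stand above all other groups.

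All 6 falls in Schmid lay in complexes IV and V. Cox7b, a small membrane subunit of complex IV, read 14.73, 15.52 and 15.56 in Schmid against 16.38, 16.43 and 16.60 in its wildtype. Its log2 fold change of -1.20 ± 0.37 was the only fall that also reached 2-fold at a brightest probe (adjusted p = 0.0399, limma). Cox6c, another small subunit of complex IV, read 15.99, 16.70 and 16.71 against 17.15, 17.54 and 17.65, a change of -0.98 ± 0.30 (adjusted p = 0.0376). Atp5h, of the peripheral stalk of complex V, read 16.14, 16.27 and 16.35 against 16.62, 17.47 and 17.57, a change of -0.97 ± 0.29 (adjusted p = 0.0352). Its second probe, which overlaps the first, changed by -1.05 and did not pass (adjusted p = 0.0795). None of these groups overlapped, and for each of these 3 genes the lowest wildtype value was replicate 1.

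Cox6b2, the testis form of a complex IV subunit, changed by -0.89 ± 0.27 (adjusted p = 0.0362), and Atp5g3, 1 of 3 genes for the proton-carrying c subunit of complex V, by -0.42 ± 0.13 (adjusted p = 0.0442, limma for both). Cox8c also passed (adjusted p = 0.0399), but it was not well above background on any of the 12 arrays, so no fold is given. In Cog, Cox7b, Cox6c, Atp5h, Cox6b2 and Atp5g3 changed by -0.25, -0.18, -0.57, -0.34 and -0.33 on the log2 scale, and none passed. The differences between the mutants did not pass for these 5 genes either.

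**Figure D3:**
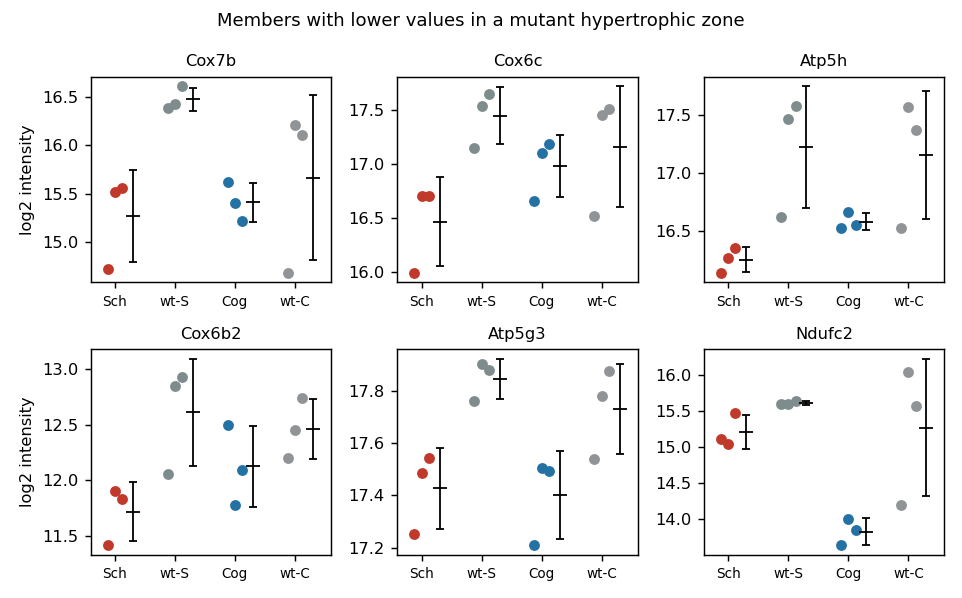
Log2 intensity (y axis) of 6 genes with lower values in a mutant hypertrophic zone, in the 4 groups (x axis, as labelled in the plot of Cycs and the other higher genes). Points are mice and bars give mean ± SD (n = 3); the first point of the Cog-background wildtype lies below its group for each of the 6, and for Ndufc2 the 3 Cog values, from 13.64 to 14.01, lie below all others.

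Dimmer probes added 3 calls in Schmid beside the 2 of Cycs. The second probe of Ndufa1, which codes for a small accessory subunit of complex I, read 15.55, 15.48 and 15.73 in Schmid against 16.66, 17.78 and 17.68, a log2 fold change of -1.79 ± 0.55 (adjusted p = 0.0398). Its brightest probe fell on the same side, at -1.16, without passing (adjusted p = 0.107). The second probe of Atp5f1, which codes for the b subunit of the complex V stalk, changed by 0.82 (adjusted p = 0.0345), while its 2 other probes changed by 0.32 each and did not pass. The second probe of Uqcrq, a small subunit of complex III, passed (adjusted p = 0.0174) at a level that was at least 1.45-fold higher than a wildtype group not well above background, while its brightest probe changed by -0.38 and did not pass. Of 25 genes with more than 1 probe, all probes shared a sign in 20 genes in Schmid and in 16 in Cog.

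The Schmid counts moved with the fit and with single arrays. Replicate numbers deviated together in the Schmid comparison, and with the replicate number as a block over all 12 arrays 4 genes were higher and 13 lower, 9 of the 10 calls being kept and Cox8c lost (adjusted p = 0.0688). That block also covered the Cog comparison, where same-numbered mice correlated at -0.208, 0.151 and -0.2. In all 21% of the genes were called with it, against 22.7% of all probes. The falls then made up 16% of the genes, against 12.3% of all probes. The falls of at least 2-fold numbered 5 with that block. Leaving out replicate 1 of the Cog-background wildtype, which is not part of this comparison but enters the common estimate of spread, left every Schmid fold change as it was and gave 5 higher and 23 lower, with all 10 calls kept. In that fit 34.6% of the genes were called against 24.6% of all probes, and 28.4% against 13.7% were lower, so that the order of these shares turned. That array had been picked by these genes' own low values, and leaving it out narrows their estimated spread. The larger share is therefore not independent evidence. Of those 23 falls, 8 were in complex I, 3 in complex III, 6 in complex IV and 6 in complex V. Atp5k, a small subunit of complex V with a change of -1.53, passed in both of these fits (adjusted p = 0.0381 with the block and 0.0157 without that array), as did Ndufb2 of complex I (-1.31, adjusted p = 0.0378 and 0.00873). The number of genes called was 17 without replicate 1 of the Schmid-background wildtype. It fell to 2 without Schmid replicate 1 or wildtype replicate 3, to 1 without Schmid replicate 2, Schmid replicate 3 or wildtype replicate 2, and to 6 without Cog replicate 2 or Cog-background wildtype replicate 2. Cox7a2l passed each time.

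The second comparison set Cog against its own wildtype. By limma 0 genes were higher and 1, Atp5a1, was lower at its brightest probe, where 2.73% of all probes were higher and 1.86% lower (4.58% in all). None reached 2-fold, against 1.56% higher and 0.748% lower over the array. At an unadjusted p of 0.05 or less, 3 genes were higher and 15 lower, together 22.2% of the genes against 21.3% of all probes. As in Schmid, most fold changes were negative: 64 of 81, with a median of -0.34 on the log2 scale where all probes had -0.004. The groups did not overlap for 10 lower genes (12.3%) and 4 higher ones (4.94%), against 13% and 16.4% of all probes.

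Atp5a1 codes for the alpha subunit of the catalytic head of complex V. It read 17.04, 17.03 and 17.05 in Cog against 18.16, 17.62 and 17.58 in its wildtype, a log2 fold change of -0.75 ± 0.18 (adjusted p = 0.0461, limma). For this gene the wildtype array that stood apart was the highest of its group. Its second probe changed by -0.35 with overlapping groups (adjusted p = 0.367). The second probe of Ndufb8, an accessory subunit of complex I, passed at 2-fold in Cog (-1.41 ± 0.32, adjusted p = 0.0348), reading 10.34, 11.15 and 10.01 against 12.34, 11.68 and 11.71. Its brightest probe changed by -0.68 and did not pass (adjusted p = 0.162).

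Without replicate 1 of the Cog-background wildtype the Cog picture differed in size. In that fit 15 genes were lower and 0 higher, 13 of them by at least 2-fold, and the median of the 81 genes moved from -0.34 to -0.67 on the log2 scale. Of the 15, 8 were in complex I, 3 in complex IV, 2 in complex V and 1 each in complexes II and III. The share of genes called was 18.5%, where 4.49% of all probes were called in the same fit. Here too the array had been picked by these genes' own values, so the larger share is not independent evidence. Ndufc2, an accessory membrane subunit of complex I, read 13.64, 14.01 and 13.85 in Cog against 14.20, 16.04 and 15.57 in its wildtype. It changed by -1.44 with all arrays (adjusted p = 0.0551) and by -1.97 ± 0.18 without that array (adjusted p = 0.00209). Cox6b1, of complex IV, read 12.88, 12.77 and 12.45 against 11.89, 14.66 and 14.65, so that the array that stood apart lay below the mutants and the other 2 controls far above them. Its change was -1.03 with all arrays and -1.96 without that array (adjusted p = 0.00634). These 2 genes were chosen after their values without that array were seen. Atp5a1 was not among the 15. No gene was called without replicate 2 or 3 of the same wildtype, Cog replicate 1 or 3, Schmid replicate 2 or 3, or Schmid-background wildtype replicate 2, and 3 were without replicate 1 of the latter. The median ran from -0.67 to -0.19 over all left-out arrays.

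Among the complexes, the 2 mutants parted most in the catalytic core of complex I and in complex II. Other mitochondrial genes, given further on, shifted the same way. The 7 nuclear core genes of complex I, which form the arm that takes electrons from NADH to coenzyme Q, had a median log2 fold change of 0.28 in Schmid. In Cog their median was -0.45. The difference between the mutant effects had a median of 0.75 over the core genes, and was positive for all 4 complex II genes, with a median of 0.68, where the median over all probes was -0.03. The wildtypes entered this difference too: all 4 complex II genes were lower in the Schmid-background wildtype than in the Cog-background one, with a median of -0.40 and none past the adjusted p, and the core median was -0.14. Under every scaling, filter, block and left-out array that was run, the core median stayed positive (0.69 to 1.34) and so did all 4 complex II genes, none of which passed the adjusted p with all arrays. Without replicate 1 of the Cog-background wildtype the difference passed for Ndufs8 (1.10, adjusted p = 0.00563) and Sdhc (1.40, adjusted p = 0.0148), and for Ndufv2 (adjusted p = 0.0323), for which no size is given because Cog was not well above background. In that fit, which drops an array picked by these genes' own values, 10 genes (12.3%) passed, all of them higher in Schmid relative to Cog. Of all probes 13.4% passed in either direction and 8.12% as lower, so 13.4% is not a matched share for rises alone. The rest lay outside the core and complex II. They were Ndufc2 (1.57, adjusted p = 0.005), Ndufs4, Ndufa4 and Ndufa9 among the accessory genes, with Cox5a, Cox6b1 and Atp5g1. The 28 accessory genes of complex I had medians of -0.58 in Schmid and -0.46 in Cog. For them the difference had a median of -0.24, which turned to 0.27 without replicate 1 of the Cog-background wildtype and to 0.01 once a trend over array rows and probe GC content was removed.

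Ndufv2, a core subunit, read 10.71, 10.39 and 10.51 in Schmid against 10.26, 9.49 and 9.73, and in Cog 9.21, 9.68 and 9.12 against 9.33, 10.73 and 9.79. The difference did not pass (adjusted p = 0.0768). Cog was not well above background for Ndufv2, so only a bound of 1.31-fold between the means of 9.34 and 9.95 is given. The groups overlapped and the change did not pass (adjusted p = 0.317, limma). Among genes not bounded in this way the differences were highest for Ndufs1 and Ndufa10, at 1.13 and 1.11. At the other end stood Atp5k (-1.33), Ndufc1 (-1.17) and Atp5e (-1.11), none of which passed. Over the 81 genes, 1 was higher and 1 lower in Schmid relative to Cog at the adjusted p, where 6.38% and 10.2% of all probes were (16.6% in all), and 0 reached 2-fold either way, against 4.38% and 5.88%. Over the left-out arrays this total ran from 0 (without Schmid replicate 1, Cog replicate 3 or Cog-background wildtype replicate 2) to 10 (without replicate 1 of that wildtype), with 7 without replicate 1 of the Schmid-background wildtype and 1 for the rest. With all arrays the lower one was Cox8c, below background throughout. The higher one was Ndufa9, an accessory subunit of the arm of complex I that lies in the matrix. It read 16.49, 16.31 and 16.31 in Schmid against 16.02, 16.33 and 16.19, and 15.76, 15.98 and 15.79 in Cog against 16.23, 16.30 and 16.36. Its changes were 0.19 in Schmid and -0.45 in Cog, neither of which passed, and the difference was 0.64 ± 0.16 (adjusted p = 0.0257, limma). The third probe of Atp5f1 passed as well (adjusted p = 0.0476), with no size given. Cog was not well above background for it, so only a bound of 1.53-fold between the means of 9.40 and 10.21 is given. The groups overlapped and the Cog change did not pass (adjusted p = 0.0888, limma).

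Complexes III, IV and V had negative medians in both mutants. The 7 genes of complex III had medians of -0.38 in Schmid and -0.17 in Cog, and none passed. Cyc1, the cytochrome c1 that donates electrons to cytochrome c, read 14.41, 14.80 and 14.64 in Cog against 15.62, 15.11 and 15.12 in its wildtype, without overlap (-0.67 ± 0.23, adjusted p = 0.132). In Schmid it changed by 0.17. The 17 genes of complex IV had medians of -0.55 and -0.34, and the 16 of complex V -0.31 and -0.26.

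**Figure D4:**
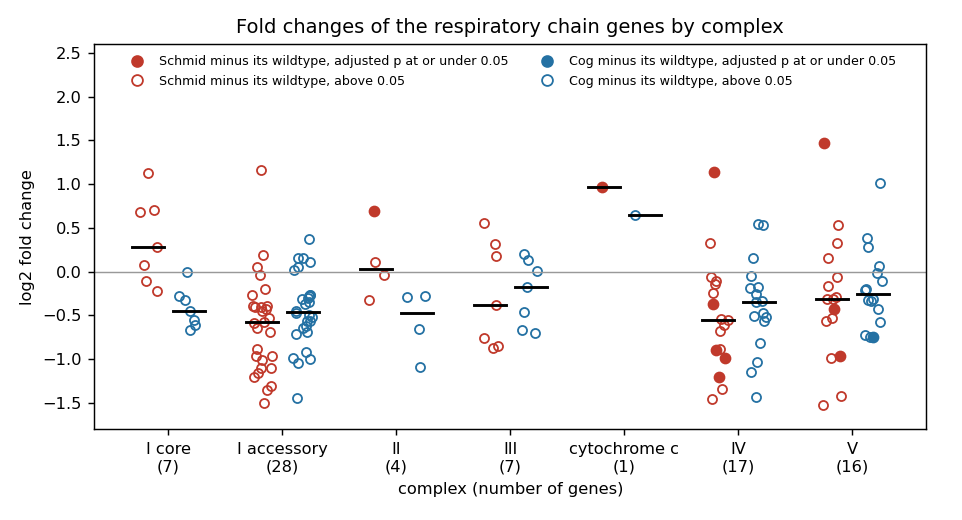
Log2 fold change of each gene's brightest probe (y axis) in Schmid and in Cog against their own wildtypes, by complex (x axis). Filled points passed the adjusted p and bars are medians; core genes of complex I have medians of 0.28 in Schmid and -0.45 in Cog, while accessory genes have -0.58 and -0.46.

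Several complex IV subunits exist as tissue forms, and the muscle forms varied widely between mice of some groups. Cox6a2, Cox7a1 and Cox8b are the forms of heart and skeletal muscle. Cox8b read 8.76, 11.17 and 9.23 in Schmid and 10.65, 11.71 and 11.15 in its wildtype. In Cog it read 8.82, 9.05 and 9.11, and in the Cog-background wildtype 8.75, 9.26 and 12.41. One Schmid mouse and one Cog-background wildtype mouse were thus high, and the groups overlapped in both comparisons. Cox6a2 and Cox7a1 had their highest values of those 2 groups in the same mice, 12.93 and 14.55 for Cox6a2, and 11.54 and 12.84 for Cox7a1. The muscle myosin gene Myh4 did as well, at 15.93 in that Schmid mouse against 11.61 and 10.39 in the other 2, and at 16.55 in that wildtype against 10.27 and 11.73. The log2 fold changes of the 3 isoforms were -1.34, -0.89 and -1.45 in Schmid and for the first 2 they were -1.43 and -0.82 in Cog. For Cox8b Cog was not well above background, and its wildtype was so on 1 of 3 arrays. The bound of 1.55-fold on their means (8.99 and 10.14) reflects the 1 high wildtype mouse, with overlapping groups (adjusted p = 0.49, limma). None of these passed. All 8 muscle markers had negative changes in both mutants, and 1, Tnni2, passed in Schmid. Their part in the result was not tested.

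**Figure D5:**
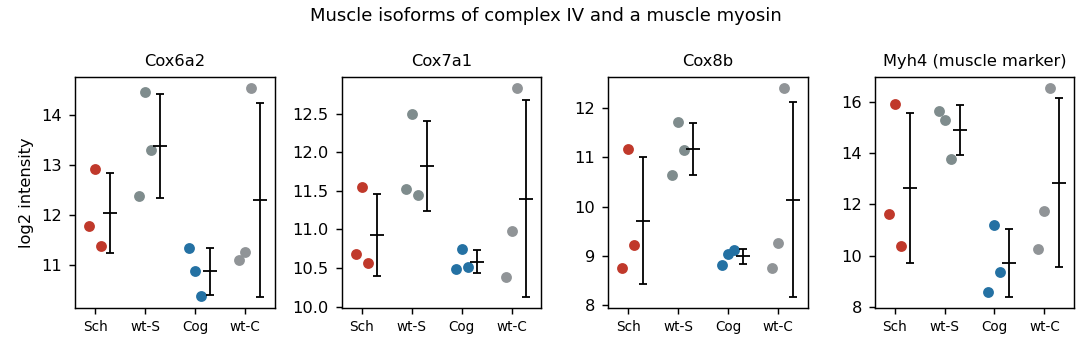
Log2 intensity (y axis) of the muscle isoforms Cox6a2, Cox7a1 and Cox8b and of the muscle myosin gene Myh4 in the 4 groups (x axis: Sch, Schmid; wt-S, its wildtype; Cog; wt-C, its wildtype). Points are mice and bars give mean ± SD (n = 3); the same Schmid mouse and the same Cog-background wildtype mouse are highest of their group in each panel.

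The widely expressed forms showed no call. Cox4i1 changed by -0.25 in Schmid and -0.19 in Cog, Cox6a1 by -0.14 and -0.05, Cox6b1 by -0.54 and -1.03, Cox7a2 by -0.61 and -0.52, and Cox8a by -0.55 and -0.34. Cox6a1 was saturated on 3 arrays and Cox8a on 1. Cox4i2, a form known from lung, changed by -0.10 in Schmid. It was not well above background in Cog, so only a bound of 1.16-fold between the means of 9.38 and 9.88 is given. The groups overlapped and the change did not pass (adjusted p = 0.204, limma). Atp5g1, Atp5g2 and Atp5g3 code for the same mature peptide from different genes, and in Schmid they changed by 0.53, -0.07 and -0.42, of which the last passed. In Cog they changed by -0.11, -0.34 and -0.33.

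Other mitochondrial genes, outside the set taken by name, moved differently in Schmid. Their assembly list held Ndufab1 and Ndufaf1, which the name rule had left out. Of 57 measured genes of the tricarboxylic acid cycle, assembly, biogenesis, carriers and proteases, 13 were higher and 5 lower there, with a median of 0.29, against backgrounds of 10.6% and 13.3%. Among the rises were Lrpprc, which stabilises mitochondrial transcripts (1.91, adjusted p = 0.00397), and Surf1, an assembly factor of complex IV (1.68, adjusted p = 0.00179). Tfb1m (1.62, adjusted p = 0.000885) and Tfb2m (1.77, adjusted p = 0.0249), both named as mitochondrial transcription factors, rose too. So did Pdhb of pyruvate dehydrogenase (1.55, adjusted p = 0.000904). Among the falls were Tfam, which packages and transcribes mitochondrial DNA (-1.41, adjusted p = 0.00101), Esrra, a nuclear receptor that drives respiratory genes (-1.23, adjusted p = 0.015), and Atpif1, the inhibitor of complex V (-1.37, adjusted p = 0.0322, all by limma). In Cog 2 of the 57 were higher and 4 lower, against backgrounds of 2.73% and 1.86%. The difference between the mutants passed for 8 in favour of Schmid and 2 in favour of Cog, where 6.38% and 10.2% of all probes did, with Lrpprc at 1.85 (adjusted p = 0.03) and Tfam at -1.61 (adjusted p = 0.00439). Over the 57 genes the median difference was 0.49, with 38 positive and 19 negative. By list it ran from 0.11 (15 assembly factors and regulators) to 0.79 (9 carriers). The medians of the complex I core (0.75) and of complex II (0.68) lay within that span.

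The 2 wildtype groups were set against each other as a check of background. By limma 0 of the 81 genes passed, where 0.872% of all probes did (0.381% higher and 0.491% lower, or 0.233% and 0.236% with 2-fold as well), and 4 genes (4.94%) had an unadjusted p of 0.05 or less, against 14.1% of all probes. The groups did not overlap for 3 genes that were higher in the Schmid background and 1 that was lower, against 9.52% and 8.64% of all probes. The median over the 81 genes was 0.15 higher in the Schmid background, and -0.14 without replicate 1 of the Cog-background wildtype. The median SD between mice was 0.608 over these genes in the Cog-background wildtype, 0.363 in the Schmid-background wildtype, 0.254 in Schmid and 0.221 in Cog, and the widest were Cox8b (1.98) and Cox6a2 (1.94) in the Cog-background wildtype and Cox7c (1.20) in the Schmid-background wildtype. Over bright probes in general the Cog-background wildtype had 0.336.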

How the data were processed

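Hypertrophic zones of 12 mice aged 14 days were measured on Agilent 44K mouse arrays, with 1 dye (Cy3). Per the file headers and the study's methods, the authors deposited scanner output of Agilent Feature Extraction 9.5.3, which holds mean and background intensities of 45018 spots, and a matrix of log2 values that they had background-corrected and quantile-normalised with limma. The main analysis started from the intensities. Background was corrected with normexp (offset 50), arrays were quantile-normalised, 43379 non-control spots were kept apart from outliers (at least 99.69% per array), and spots of one probe were averaged to 41174 probes, of which 33 lacked a value on some array. Agilent's software placed probes on mm7. The number of arrays limits precision.

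In limma 3.58.1 (R 4.3.3), 1 model with 4 group means over 12 arrays (8 residual degrees of freedom) gave moderated tests with Benjamini-Hochberg adjustment over all probes, and was tested on simulated data. The adjusted p threshold was 0.05. A gene was represented by its brightest probe over 12 arrays. Where a group was not well above background on all arrays, only a lower bound of the fold between group means was given. Genes were named if they were among the 8 largest changes each way past the threshold, among the 3 largest differences between mutant effects, in complex II, Cycs or Cyc1, in sets of tissue isoforms, had called probes of differing direction, or varied most within a group. The members and lists were chosen with earlier results of these data known. Gene lists covered other mitochondrial genes and markers of muscle, red cells, endothelium, osteoclasts, osteoblasts, neutrophils, proliferation, hypertrophic chondrocytes and cartilage.

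Replicate numbers are shared between groups, but nothing states that they mark a litter or day. Over 12828 probes above background on all arrays, deviations of same-numbered mice from their group means correlated at 0.307, 0.283 and 0.117 in the Schmid comparison, at -0.208, 0.151 and -0.2 in Cog and at 0.504, 0.115 and 0.274 between wildtypes. Over all probes the Schmid values were 0.193, 0.171 and 0.066. The deposited matrix correlated with the values used here at 0.99987 or more on each array, and its direction and scale were the same. Alternatives comprised other signals, scalings, filters, blocks and left-out arrays. RefSeq accessions matched 99 of the 111 probes. Values of single genes that are not named are not reported here.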

Additional observations from a re-analysis of the deposited data

Results flagged for a closer look

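The test of the difference between the Schmid and Cog effects passed at 5 probes of respiratory chain genes, of which 3 were above background on all arrays (limma, adjusted p of 0.05 or less, n = 3 mice per group). The difference, Schmid minus Cog on the log2 scale, was 1.77 at the second Cycs probe (adjusted p = 0.00645) and 1.61 at the third (adjusted p = 0.00786), and over 20 alternatives these ranged from 1.61 to 2.08 and from 1.47 to 2.38, past the threshold each time. It was 0.64 at Ndufa9 (adjusted p = 0.0257), which passed in 12 of 20 alternatives, with adjusted p from 0.00609 to 0.302. At the other 2 probes the fitted values are not measured sizes. At the third Atp5f1 probe, where Cog failed the background criterion on all its arrays, the fitted value was 1.13 (adjusted p = 0.0476), which passed in 6 of 20, with adjusted p from 0.0124 to 0.302. It was -0.53 at Cox8c (adjusted p = 0.0491), whose signal failed the background criterion on all 12 arrays, and which passed in 5 of 19, with adjusted p from 0.0135 to 0.693. Groups of 3 mice were not tested for single outlying values.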

How the results depend on the processing

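Cox7a2l and probes 2 and 3 of Cycs stayed past the threshold in Schmid under all 21 alternatives, and no call in Schmid or Cog changed sign. The other calls held less often. In Schmid, Atp5g3 passed in 8 of 21, Sdhd in 9, Cox6b2 in 12, Cox6c and Atp5h in 13 each and Cox7b in 14. Atp5s passed in 17, and the brightest Cycs probe in 15 (adjusted p up to 0.145, limma). Cox8c passed in 8 of 20. In Cog, Atp5a1 passed in 6 of 21 (adjusted p up to 0.341) and the second Ndufb8 probe in 9. The median of the 81 genes stayed negative in both mutants throughout. Its shifts were smaller than the spread between arrays, pooled over the 4 groups (0.346), in every setting with all arrays. That pooled value is widened by the Cog-background wildtype, whose arrays ran from -0.65 to 0.44, against -0.33 to -0.15 in Cog. The shifts were not set against the spread of the narrower groups.

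The counts moved. With the software's processed signal scaled to the 75th percentile, 2 genes were higher and 2 lower in Schmid, both lower ones by at least 2-fold, 0 were lower in Cog, and 0 were lower in the difference between mutants. That scaling shifted the median of all probes to -0.40 in Schmid, 0.43 in Cog, -0.66 in the difference and -0.12 between wildtypes, with the 81 genes at -0.69, -0.63, 0.01 and 0.33. Among all probes called at 2-fold in Schmid, 42.5% were then higher, against 55.2% in the main analysis, and 23.7% against 42.7% in the difference. With normexp scaled likewise, 1 was lower in Schmid, 0 in Cog, 3 were higher and 0 lower in the difference, and all probes had medians of -0.35 in Schmid and -0.31 in the difference. With the processed signal quantile-normalised, 4 Schmid falls reached 2-fold, 5 genes were higher in the difference, and the fitted value of Cox8c, below background throughout, reversed to 0.0627. With the deposited log2 values 2 genes were lower in Cog. With probes above background on at least 3 arrays, 3 were lower in Cog, 2 of them by 2-fold, and 0 were higher and 0 lower in the difference. With only the 2 groups compared, 3 Schmid falls reached 2-fold and 0 genes were lower in Cog. The replicate block gave 13 lower in Schmid, 5 by 2-fold, and 2 lower in the difference, and moved no other count at the adjusted p. The slide as a random block had a negative consensus correlation (-0.122), and gave 13 lower in Schmid, 3 by 2-fold, 1 higher and 9 lower in Cog, 3 by 2-fold, and 6 higher and 2 lower in the difference. With a trend over array rows and GC content removed, 4 Schmid rises and 3 falls reached 2-fold, 0 genes were lower in Cog and 5 were higher in the difference. Counting all probes, 8 were higher in Schmid, 4 by 2-fold, 2 falls there reached 2-fold, 2 were lower in Cog, 1 by 2-fold, and 4 were higher in the difference. By current RefSeq symbols 1 Schmid rise reached 2-fold. The causes were not tested.

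Leaving out each array in turn gave 1 to 7 higher and 0 to 23 lower in Schmid (1 to 3 and 0 to 8 by 2-fold), 0 to 1 higher and 0 to 15 lower in Cog (0 higher and 0 to 13 lower by 2-fold), 0 to 10 higher and 0 to 2 lower in the difference, and 0 higher and 0 to 1 lower between wildtypes. The medians ran from -0.51 to -0.33 in Schmid, from -0.67 to -0.19 in Cog, from -0.24 to 0.36 in the difference and from -0.14 to 0.34 between wildtypes.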
